A study of Mus musculus with 42 samples.

Results

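Late neutrophil granule and calprotectin genes were followed as a set of 10: Camp, Ngp, Ltf, Lcn2, Mmp8, Mmp9, Retnlg, S100a8, S100a9 and Olfm4. They were taken by name, as secondary and tertiary granule and mature neutrophil genes. All 10 were found among the 55487 mouse gene identifiers of the count tables, and all 10 passed the filter on low counts in both kinds of library. The cells were acute myeloid leukaemia (AML) cells driven by the MLL-AF9 fusion, which came from a single terminally ill mouse, were grown ex vivo with SCF, IL-3 and IL-6, and carry GFP, driven by a ubiquitin sequence, and luciferase, driven by β-actin. They were given by vein to males aged 8 to 10 weeks without preconditioning, so that the host's own blood formation remained. From each of 21 mice, viable GFP-positive marrow cells gave 1 mRNA library (Smart-seq2) and 1 library of ribosome footprints, the RNA pieces covered by translating ribosomes.

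Of the 4 groups, 7 mice had the diet free of branched-chain amino acids (BCAA) and 5+3 chemotherapy, 5 had the BCAA-free diet and vehicle, 4 had the standard amino acid (AA) diet and 5+3, and 5 had the AA diet and vehicle. The 5+3 course combined cytarabine (100 mg/kg, 5 daily doses) with doxorubicin (3 mg/kg, 3 daily doses), begun at a critical AML burden, and the vehicle was PBS. Marrow was taken when the response to chemotherapy was greatest. The genotype is labelled WT and no strain is given. The AA vehicle mice alone carry a B in their names, which the labels do not explain. If that letter marks a batch, it cannot be told apart from the group.

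Neutrophils fill their granules in waves as they mature. Promyelocytes make primary granules with myeloperoxidase and serine proteases. Myelocytes and metamyelocytes make secondary granules, which hold cathelicidin (Camp), neutrophilic granule protein (Ngp), lactoferrin (Ltf), lipocalin 2 (Lcn2), neutrophil collagenase (Mmp8) and olfactomedin 4 (Olfm4), and tertiary granules with gelatinase B (Mmp9) follow. S100a8 and S100a9 pair as calprotectin, an abundant neutrophil cytosolic protein that binds calcium, zinc and manganese. Retnlg encodes resistin-like gamma, a small secreted protein of mouse myeloid cells. The factor C/EBP-epsilon drives secondary granule genes in normal maturation, and MLL-AF9 leukaemia cells are myeloid cells held back in that course.

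In RefSeq's annotation of GRCm38.p6, Camp (chr9:109847377-109849456, minus strand), Ngp (chr9:110419808-110423012, plus) and Ltf (chr9:111019292-111042766, plus) lie within 1195.4 kb. S100a8 (chr3:90669071-90670034, plus) and S100a9 (chr3:90692630-90695721, minus) are 22.6 kb apart. Mmp8 (chr9:7558429-7568486, plus) overlaps the predicted gene Gm31751, and reads there could belong to either. The remaining members are Lcn2 (chr2:32384637-32387739), Mmp9 (chr2:164940326-164955850), Retnlg (chr16:48872608-48874498) and Olfm4 (chr14:80000302-80023141), which overlap no other annotated gene.

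Promoters are shown for 4 members, Ngp and Ltf for the secondary granules and S100a8 and S100a9 for calprotectin, because the members moved together, so that the letters they hold in common can be compared. RefSeq promoters were found for 9 of the 10 members, all but Mmp9. Each sequence is the 250 bases before the gene's start on the gene's own strand, 5′ to 3′, with motif matches in capitals: C/EBP, PU.1 and TATA letters as given after the sequences. The windows are chr9:110419558-110419807 (Ngp, plus), chr9:111019042-111019291 (Ltf, plus), chr3:90668821-90669070 (S100a8, plus) and chr3:90695722-90695971 (S100a9, minus).
Ngp: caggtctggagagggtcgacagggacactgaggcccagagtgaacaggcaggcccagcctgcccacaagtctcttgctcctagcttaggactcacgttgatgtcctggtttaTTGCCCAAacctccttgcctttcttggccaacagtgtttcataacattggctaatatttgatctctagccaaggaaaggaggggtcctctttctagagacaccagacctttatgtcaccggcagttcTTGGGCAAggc
Ltf: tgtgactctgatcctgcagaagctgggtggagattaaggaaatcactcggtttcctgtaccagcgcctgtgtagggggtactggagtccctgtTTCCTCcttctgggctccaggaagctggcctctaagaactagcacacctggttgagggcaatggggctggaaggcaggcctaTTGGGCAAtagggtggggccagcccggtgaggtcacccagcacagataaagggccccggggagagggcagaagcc
S100a8: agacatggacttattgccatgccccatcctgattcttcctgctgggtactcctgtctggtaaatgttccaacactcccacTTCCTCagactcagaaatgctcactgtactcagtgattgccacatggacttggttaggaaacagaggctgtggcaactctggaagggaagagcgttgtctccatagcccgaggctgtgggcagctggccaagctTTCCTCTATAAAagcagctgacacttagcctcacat
S100a9: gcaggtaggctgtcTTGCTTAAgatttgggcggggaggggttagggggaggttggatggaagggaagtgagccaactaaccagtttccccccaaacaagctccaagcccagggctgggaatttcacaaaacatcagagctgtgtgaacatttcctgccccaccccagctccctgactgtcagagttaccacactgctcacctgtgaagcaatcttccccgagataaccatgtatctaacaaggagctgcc

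The C/EBP letters TTGCNNAA, or TTNNGCAA as the other strand reads, were present in 6 of the 9 members' windows and in 9.56% of all 32851 RefSeq windows of the same length. Ngp held 2 such matches, at bases -138 to -131 and -11 to -4 before its start, and Ltf, Lcn2, Mmp8, Retnlg and S100a9 held 1 each. The PU.1 letters GAGGAA, or TTCCTC, were present in 5 of 9 (Ltf, Lcn2, Mmp8, S100a8 and Olfm4) and in 23.3% of all windows. TATAAA was present in 1 of 9, S100a8, at bases -30 to -25, directly after a PU.1 match and sharing no base with it, and was in 12.4% of all windows on either strand. The STAT letters TTCNNNGAA, in 7.02% of all windows, were not in these 9. A match is a run of letters in this window and not a shown binding site.

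Total counts ran from 30996200 to 70437713 per mRNA library and from 2697092 to 8863472 per footprint library. The low members therefore rested on few footprints, with as few as 2 for Retnlg and 3 for Mmp8 in a BCAA-free 5+3 mouse. Levels are given as CPM, the counts of a gene scaled to a common total of the tested genes after TMM scaling, with no correction for gene length, and serve to compare mice and not genes. All 9 genes of a leukaemia marker list (the MLL-AF9 programme, with Hoxa9 and Meis1) had counts in every group. In BCAA-free 5+3 mice their summed mRNA was 1723 CPM in mouse 18, described below, and 972 to 1365 CPM in the others. It was 1177 to 1590.5 CPM in BCAA-free vehicle mice. Their summed footprints were 801 CPM in mouse 18 and 610 to 667 CPM in the other BCAA-free 5+3 mice. All of those others lay below the 696 to 821 CPM of BCAA-free vehicle mice. In footprints 4 of the 9 fell with 5+3 on the BCAA-free diet, by the test used for the members, where 11.9% of all genes fell. In mRNA none of the 9 passed in edgeR, with 2 at an unadjusted p under 0.05. In a bulk sample, fewer cells of a type and less RNA per cell cannot be told apart.

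Mouse 18 (replicate 3 of the BCAA-free 5+3 group) stood apart in the members, and was also above the rest of its group in both sums of leukaemia markers. Its footprints exceeded those of the other 6 treated mice for 10 of 10 members, and its mRNA for 9 of 10, all but Lcn2. Camp footprints, for example, were 97.4 CPM in mouse 18 and 5.95 to 17.5 CPM in the other 6. Together the members took 0.131% of its footprint counts, against 0.0157% to 0.0498% in the other 6, and 0.272% of its mRNA counts, against 0.0307% to 0.0975%. Mouse 18 lay within the range of the BCAA-free vehicle mice for 5 members in footprints and 4 in mRNA. The other 6 lay below every BCAA-free vehicle mouse for 10 of 10 members in footprints and 8 of 10 in mRNA.

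Across all genes mouse 18 was the highest of its group about as often as other mice. It was the highest of the 7 mice for 17.4% of genes in footprints, where the others ranged from 9.79% to 18.6%, and for 17.1% in mRNA, where the others ranged from 9.80% to 21.5%. Cdkn1a, the p53-induced inhibitor of the cell cycle, had footprints of 8.02 CPM in mouse 18, 10.6 to 18.3 CPM in the other 6 and 3.73 to 6.80 CPM in BCAA-free vehicle mice. Ms4a3, a gene of granulocyte and monocyte progenitors, had footprints of 34.7 CPM in mouse 18, 40.8 to 136 CPM in the other 6 and 14.1 to 23.1 CPM in BCAA-free vehicle mice. In footprints mouse 18 was thus below the other treated mice and above the vehicle mice for both genes. In mRNA the same held for Cdkn1a, with 82.5 CPM in mouse 18, 86.5 to 161 CPM in the other 6 and 41.0 to 64.8 CPM in BCAA-free vehicle mice. For Ms4a3 mRNA mouse 18, at 239 CPM, was within the 220 to 918 CPM of the other 6. Within its group its mRNA library was most like its own footprint library (r = 0.25 across genes with a mean of at least 10 CPM in both kinds, which are not independent replicates). Values without this mouse are given beside those with it where they change a call or move a fold by over 1.5 times. Since it was singled out for its high values in these genes, leaving it out must lower the treated group for them, and the values and counts without it are descriptions and no support for a change.

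**Figure D1:**
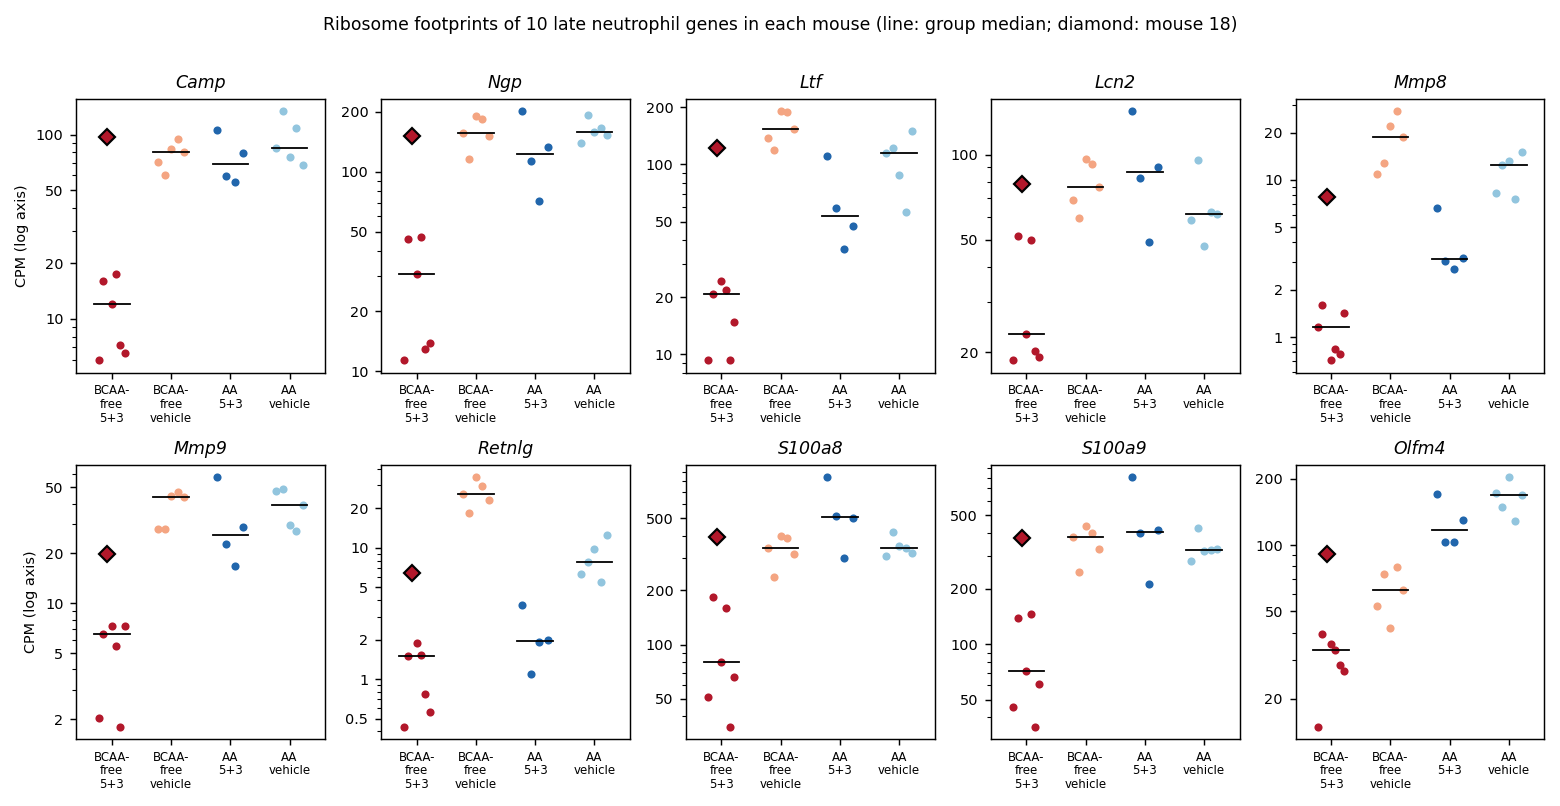
Footprint CPM (log axis) of the 10 genes in each mouse by group, mouse 18 as a diamond and the group median as a line. Camp was 5.95 to 17.5 CPM in 6 BCAA-free 5+3 mice, 97.4 CPM in mouse 18 and 60.3 to 94.1 CPM in BCAA-free vehicle mice.

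With 5+3 on the BCAA-free diet most of the set fell. In footprints 8 of 10 members fell at an adjusted p under 0.05 (edgeR's quasi-likelihood test, Benjamini-Hochberg adjustment over all genes), where 20.6% of 15723 genes passed in either direction and 11.9% passed lower. In mRNA 8 of 10 fell, where 8.56% of 21114 genes passed and 4.23% passed lower. The members' median log2 change was -1.74 in footprints and -2.23 in mRNA, beside -0.022 and -0.0061 over all genes tested. Without mouse 18, 10 fell in footprints (median -2.66, 23.9% of genes passing) and 9 in mRNA (median -2.69, 11.9% passing).

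Both calprotectin subunits fell in mRNA. S100a8 mRNA was 108 to 436 CPM in 6 BCAA-free 5+3 mice and 1014 CPM in mouse 18 (median of the 7 mice 357 CPM), and 2042, 1567, 1455, 1566 and 1730.1 CPM in BCAA-free vehicle mice. S100a9 mRNA was 45.7 to 155 CPM in 6 BCAA-free 5+3 mice and 471 CPM in mouse 18 (median of the 7 mice 139 CPM), and 972, 844, 861, 922 and 835 CPM in BCAA-free vehicle mice. For neither subunit did the groups overlap in mRNA, mouse 18 included. The fall was 4.36-fold for S100a8 (log2 change -2.12 ± 0.39 SE, adjusted p = 0.0054) and 5.53-fold for S100a9 (log2 change -2.47 ± 0.39 SE, adjusted p = 0.00197).

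In footprints mouse 18 brought the groups into overlap. S100a9 footprints were 35.7 to 145 CPM in 6 BCAA-free 5+3 mice and 374 CPM in mouse 18 (median of the 7 mice 71.6 CPM), and 379, 246, 437, 402 and 328 CPM in BCAA-free vehicle mice. S100a9 fell 2.85-fold (log2 change -1.51 ± 0.47 SE, adjusted p = 0.0302), and that call was lost in 7 of 12 fits that left out 1 mouse. S100a8 did not pass in footprints (log2 change -1.27 ± 0.45 SE, adjusted p = 0.0555), with 35.2 to 184 CPM in 6 BCAA-free 5+3 mice and 396 CPM in mouse 18 (median of the 7 mice 79.7 CPM) and 237 to 398 CPM in BCAA-free vehicle mice. Without mouse 18 both passed, at -2.09 ± 0.36 for S100a9 and -1.79 ± 0.36 for S100a8 (adjusted p = 0.000813 and 0.0022).

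Camp, the precursor of the antimicrobial cathelicidin peptide, fell in both kinds of library. Camp mRNA was 24.2 to 91.5 CPM in 6 BCAA-free 5+3 mice and 522 CPM in mouse 18 (median of the 7 mice 66.4 CPM), and 855, 689.5, 643, 676 and 892 CPM in BCAA-free vehicle mice. All 7 treated mice were below all 5 vehicle mice. Camp mRNA fell 5.81-fold (log2 change -2.54 ± 0.50 SE, adjusted p = 0.00837), or 11.8-fold without mouse 18. Camp footprints fell 3.21-fold (log2 change -1.68 ± 0.54 SE, adjusted p = 0.0363), or 6.91-fold without mouse 18, and the call with mouse 18 was lost in 10 of 12 fits that left out 1 mouse.

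Ngp, a granule protein related to cystatins and cathelicidins, had footprints of 11.3 to 47.0 CPM in 6 BCAA-free 5+3 mice and 151 CPM in mouse 18 (median of the 7 mice 30.8 CPM), and 157, 117, 191, 183 and 152 CPM in BCAA-free vehicle mice. Mouse 18 was the one treated mouse in the vehicle range. Ngp footprints fell 3.49-fold (log2 change -1.81 ± 0.49 SE, adjusted p = 0.0169), or 5.79-fold without mouse 18. Ngp mRNA fell 2.81-fold (log2 change -1.49 ± 0.46 SE, adjusted p = 0.0453), a call lost in 10 of 12 fits that left out 1 mouse, although without mouse 18 it was -1.89 ± 0.44 (adjusted p = 0.0112).

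Ltf binds iron, and Lcn2 binds the siderophores with which bacteria take up iron. Ltf footprints were 9.29 to 24.2 CPM in 6 BCAA-free 5+3 mice and 121 CPM in mouse 18 (median of the 7 mice 20.8 CPM), and 137, 119.8, 191, 190.0 and 154 CPM in BCAA-free vehicle mice. Mouse 18 was just inside the vehicle range and the other 6 far below it. Ltf fell 4.88-fold in footprints (log2 change -2.29 ± 0.53 SE, adjusted p = 0.00638) and 5.03-fold in mRNA (log2 change -2.33 ± 0.39 SE, adjusted p = 0.00287), and neither call was lost in any fit that left out 1 mouse. Without mouse 18 Ltf footprints fell 9.38-fold and Ltf mRNA 6.93-fold.

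Lcn2 was the 1 member for which mouse 18 was not the highest of its group in mRNA. Lcn2 mRNA was 22.95 to 58.0 CPM in BCAA-free 5+3 mice (median 32.9 CPM), with 32.9 CPM in mouse 18, and 47.1, 54.5, 48.4, 95.6 and 88.0 CPM in BCAA-free vehicle mice. These groups overlapped and the difference did not pass (log2 change -0.86 ± 0.29 SE, adjusted p = 0.064). Lcn2 footprints were 18.7 to 51.4 CPM in 6 BCAA-free 5+3 mice and 78.4 CPM in mouse 18 (median of the 7 mice 23.2 CPM), and 59.7 to 96.5 CPM in BCAA-free vehicle mice. They fell 2.08-fold (log2 change -1.06 ± 0.35 SE, adjusted p = 0.0405), a call lost in 8 of 12 fits that left out 1 mouse.

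The proteases Mmp8, which cuts fibrillar collagen, and Mmp9, which cuts denatured collagen, both fell. Mmp8 footprints were 0.712 to 1.61 CPM in 6 BCAA-free 5+3 mice and 7.75 CPM in mouse 18 (median of the 7 mice 1.16 CPM), and 10.9, 12.9, 21.9, 27.4 and 18.7 CPM in BCAA-free vehicle mice. Even mouse 18 was below every vehicle mouse. Mmp8 fell 8.13-fold in footprints (log2 change -3.02 ± 0.45 SE, adjusted p = 0.000246) and 5.54-fold in mRNA (log2 change -2.47 ± 0.48 SE, adjusted p = 0.00751). Mmp9 footprints were 1.81 to 7.36 CPM in 6 BCAA-free 5+3 mice and 20.0 CPM in mouse 18 (median of the 7 mice 6.54 CPM), and 28.0, 28.1, 44.4, 46.7 and 44.0 CPM in BCAA-free vehicle mice. The groups overlapped neither in footprints nor in mRNA, and Mmp9 fell 5.11-fold in footprints (log2 change -2.35 ± 0.42 SE, adjusted p = 0.00125) and 4.27-fold in mRNA (log2 change -2.09 ± 0.34 SE, adjusted p = 0.00267). None of these 4 calls was lost when 1 mouse was left out. Without mouse 18 the footprints of Mmp8 fell 15.9-fold and those of Mmp9 7.51-fold, and their mRNA fell 7.69-fold for Mmp8 and 4.97-fold for Mmp9.

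Retnlg had the largest fold change of the 10 in both kinds of library. Its mRNA was 2.63 to 6.00 CPM in 6 BCAA-free 5+3 mice and 27.5 CPM in mouse 18 (median of the 7 mice 4.29 CPM), and 172, 143, 174, 178 and 171 CPM in BCAA-free vehicle mice. Mouse 18 was above its group here too but far below the vehicle mice. Retnlg fell 22.7-fold in mRNA (log2 change -4.50 ± 0.51 SE, adjusted p = 4.65e-05). In footprints it fell 12.8-fold (log2 change -3.68 ± 0.40 SE, adjusted p = 2.52e-05), with 0.435 to 1.90 CPM in 6 BCAA-free 5+3 mice and 6.39 CPM in mouse 18 (median of the 7 mice 1.49 CPM) and 18.5 to 34.4 CPM in BCAA-free vehicle mice. Without mouse 18 Retnlg fell 41.2-fold in mRNA and 22.6-fold in footprints.

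Olfm4, a glycoprotein found in a subset of neutrophils, had the smallest change of the 10. Its footprints were 14.9 to 39.4 CPM in 6 BCAA-free 5+3 mice and 90.6 CPM in mouse 18 (median of the 7 mice 33.4 CPM), and 53.0, 73.6, 41.9, 79.8 and 62.2 CPM in BCAA-free vehicle mice. Mouse 18 was above all 5 vehicle mice. Olfm4 did not pass in footprints (log2 change -0.67 ± 0.32 SE, adjusted p = 0.141) or in mRNA (log2 change -0.85 ± 0.28 SE, adjusted p = 0.0592). Without mouse 18 it passed in both, at -1.05 ± 0.22 in footprints and -1.12 ± 0.25 in mRNA (adjusted p = 0.00229 and 0.00952).

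The BCAA-free 5+3 and vehicle groups did not overlap for 3 members in footprints and 5 in mRNA, against 8.06% and 2.82% of all genes tested. Without mouse 18 these were 10 in footprints and 8 in mRNA (11.7% and 5.49% of all genes), counts that the choice of this mouse raises. Fitting the 2 compared groups alone left 4 of the 8 footprint calls, and leaving in genes of low count left 5. Leaving out 4 mRNA libraries that an earlier look at these data had set apart (BCAA-free vehicle replicates 1, 2 and 5 and BCAA-free 5+3 replicate 7) left 3 of the 8 mRNA calls, Ltf (-2.54, adjusted p = 0.0337), Mmp8 (-3.09, adjusted p = 0.0311) and Retnlg (-4.46, adjusted p = 0.00344). That fit called 19 genes in all, and Camp had a log2 change of -2.21 in it.

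Markers of red cells moved with the set on the BCAA-free diet. Of 8 tested in mRNA, 6 fell with 5+3, and of 6 tested in footprints, 5 fell. Of all genes 4.23% fell in mRNA and 11.9% in footprints. Summed over the 9 listed markers, none of which was at 0 throughout a group, mRNA was 2.37 to 17.6 CPM in BCAA-free 5+3 mice, 77.6 to 140.1 CPM in BCAA-free vehicle mice, 31.8 to 161 CPM in AA 5+3 mice and 14.6 to 33.3 CPM in AA vehicle mice. Mouse 18 had the highest sum of its group, at 17.6 CPM of mRNA against 2.37 to 6.81 CPM in the other 6, and 31.5 CPM of footprints against 8.78 to 26.1 CPM. In the interaction of diet with 5+3, 5 of 6 were lower in footprints, where 7.09% of all genes passed in either direction. The labels say that red cells were lysed before the sort.

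Monocyte and macrophage markers fell on both diets, 7 of 11 in footprints on the BCAA-free diet and 8 of 11 on the AA diet. On the AA diet 6.61% of all genes passed in either direction. Their 12 genes summed to 186 to 488 CPM of footprints in BCAA-free 5+3 mice, 325 to 508 CPM in BCAA-free vehicle mice, 229.9 to 282 CPM in AA 5+3 mice and 390.1 to 871 CPM in AA vehicle mice, and none was at 0 throughout a group. Mouse 18 had 379 CPM, within its group. Of the tested markers of eosinophils, basophils and mast cells 2 of 6 fell in footprints on the BCAA-free diet, of B cells 1 of 2, of T and NK cells 1 of 1, of megakaryocytes 0 of 1, of dendritic cells 1 of 5 and of stroma and endothelium 0 of 3. These counts rest on few tested genes, and 11.9% of all genes fell in that comparison. The part of other cell types in the members' changes was not tested.

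**Figure D2:**
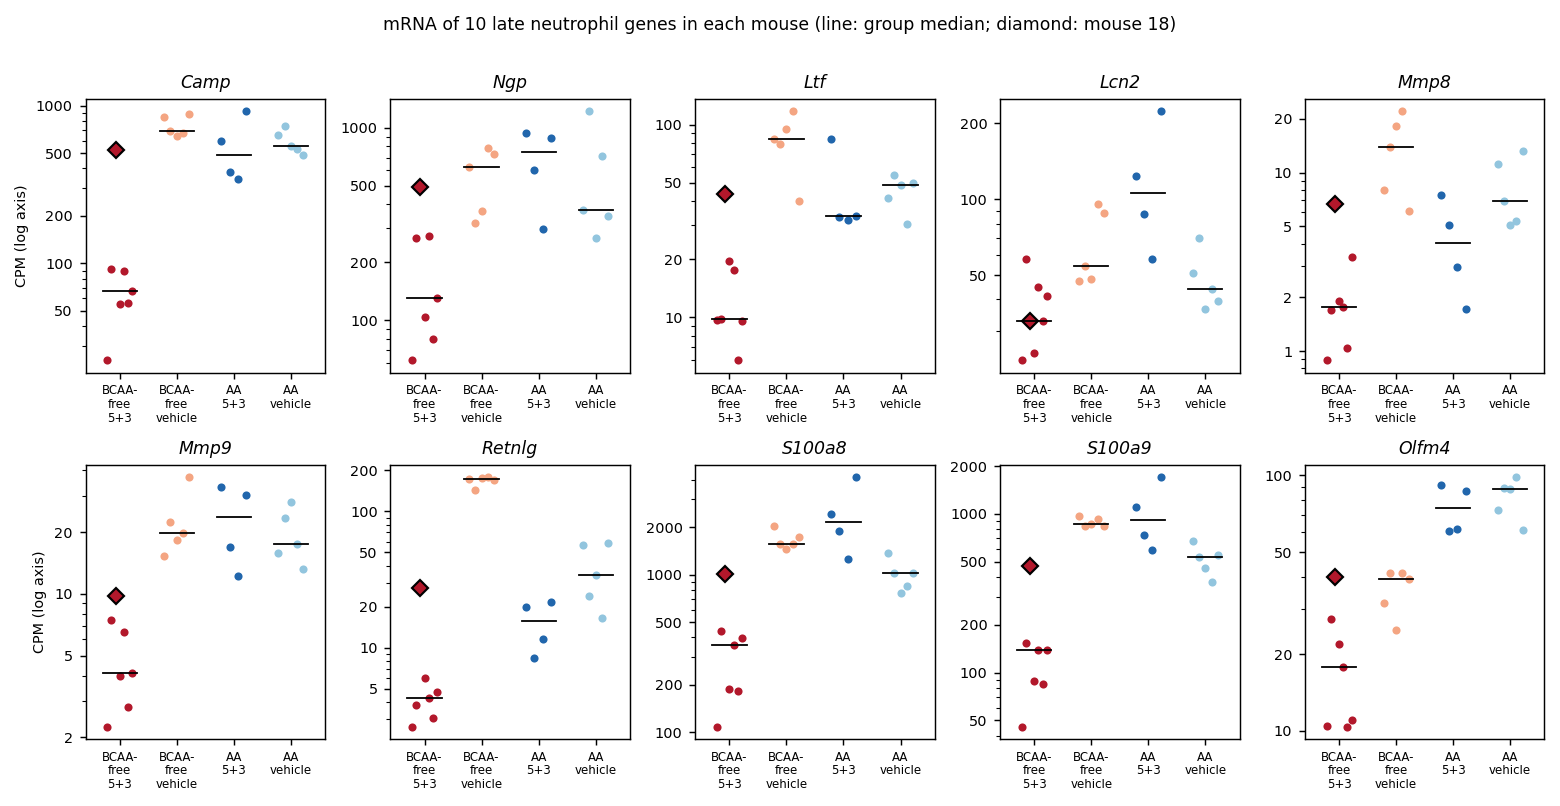
mRNA CPM (log axis) of the 10 genes in each mouse by group, mouse 18 as a diamond and the group median as a line. Retnlg was 2.63 to 27.5 CPM in BCAA-free 5+3 mice and 143 to 178 CPM in BCAA-free vehicle mice.

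On the AA diet few members moved with 5+3. In mRNA no member passed in edgeR, 4 had an unadjusted p under 0.05, DESeq2 called 1, and 0.0616% of genes passed in edgeR. In footprints 1 of 10 fell, where 6.61% of genes passed, a share near that of all genes. The members' median log2 change was 0.12 in mRNA and -0.32 in footprints. Within the AA 5+3 group, mouse 6 had the highest footprints for 10 of 10 members and mouse 8 the lowest for 8.

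Retnlg was the member that fell. Its footprints were 3.65, 1.09, 1.91 and 1.97 CPM in AA 5+3 mice and 6.31, 7.86, 9.87, 5.47 and 12.5 CPM in AA vehicle mice. The groups did not overlap, as for 10.3% of all genes tested. Retnlg fell 3.92-fold (log2 change -1.97 ± 0.54 SE, adjusted p = 0.0339), a call lost in 5 of 9 fits that left out 1 mouse and with genes of low count left in (adjusted p = 0.0843).

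Mmp8 footprints were 6.65, 3.05, 2.72 and 3.19 CPM in AA 5+3 mice and 8.28, 12.4, 13.1, 7.60 and 15.0 CPM in AA vehicle mice. These groups did not overlap either, as for 10.3% of all genes tested, and the difference did not pass (log2 change -1.53 ± 0.53 SE, adjusted p = 0.093). With mouse 18 left out of the shared fit it passed (adjusted p = 0.00292, with 7.56% of genes passing).

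Calprotectin and Lcn2, which did not pass in edgeR, had positive log2 changes on the AA diet. S100a8 mRNA was 2440.1, 1899, 1266 and 4144 CPM in AA 5+3 mice and 1364, 1025, 759.6, 850.2 and 1017 CPM in AA vehicle mice. One treated mouse overlapped with the vehicle mice, and the difference did not pass (log2 change 1.28 ± 0.44 SE, adjusted p = 0.531). S100a9 mRNA did not pass (log2 change 0.99 ± 0.44 SE, adjusted p = 0.744). Lcn2 mRNA was 124, 87.2, 58.0 and 223 CPM in AA 5+3 mice and 51.0, 70.2, 36.5, 43.9 and 39.4 CPM in AA vehicle mice, which did not pass in edgeR (log2 change 1.35 ± 0.34 SE, adjusted p = 0.254) and passed in DESeq2 (adjusted p = 0.0267). In footprints the log2 changes were 0.63 ± 0.52 for S100a8, 0.45 ± 0.53 for S100a9 and 0.50 ± 0.40 for Lcn2, and none passed.

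**Figure D3:**
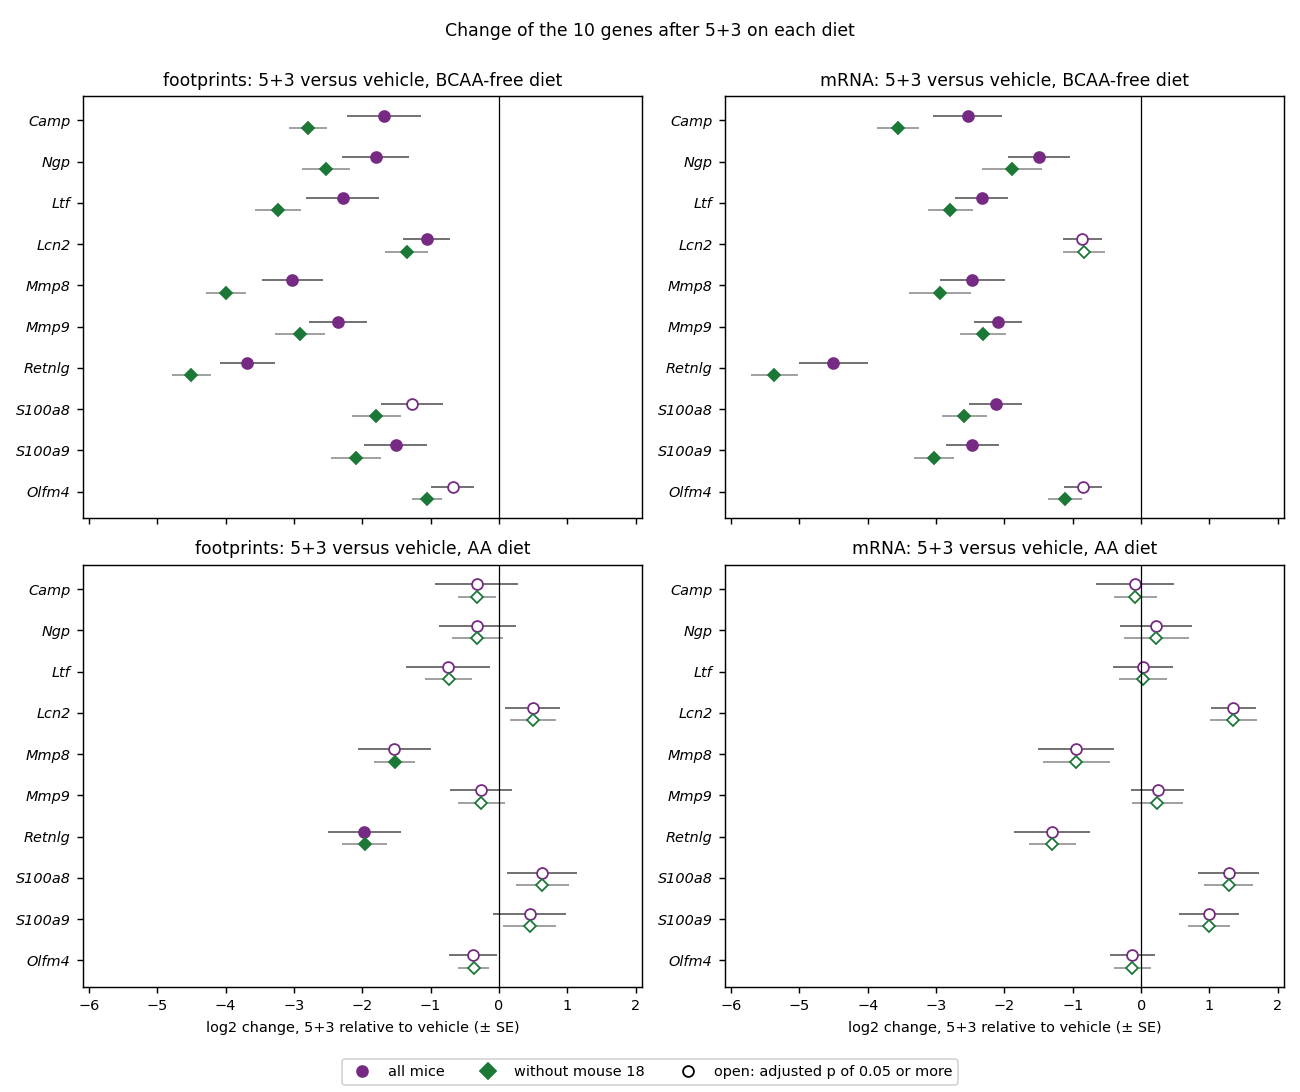
Log2 change (± SE) of each gene with 5+3 relative to vehicle on the BCAA-free and the AA diet, in footprints and mRNA, with all mice (circles) and without mouse 18 (diamonds), filled at an adjusted p under 0.05. On the BCAA-free diet all 10 genes lie below 0 in both kinds of library, and the footprint median is -1.74 with all mice and -2.66 without mouse 18.

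Between treated mice, the BCAA-free diet went with lower levels than the AA diet. In mRNA 6 of 10 members passed, all lower (Camp, Lcn2, Mmp9, S100a8, S100a9 and Olfm4), where 1.24% of genes passed and 0.682% passed lower. In footprints 7 passed, all lower (those 6 and Ngp), where 28.3% of genes passed and 15.8% passed lower. Without mouse 18, 9 passed in mRNA (1.47% of genes) and 9 in footprints (29.5%), counts that the choice of this mouse raises. Those added in mRNA were Ngp (adjusted p = 0.0157, against 0.0748 with it), Ltf (0.00372, against 0.0771) and Retnlg (given below). Those added in footprints were Ltf (0.000664, against 0.219) and Mmp8 (0.00112, against 0.318). Ltf footprints were 1.95-fold lower with mouse 18 and 3.78-fold without it, and Mmp8 footprints 1.73-fold and 3.42-fold. With the 2 compared groups fitted alone, 3 of the 7 footprint calls were left.

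S100a8 mRNA was 108 to 1014 CPM in BCAA-free 5+3 mice and 1266 to 4144 CPM in AA 5+3 mice, 6.36-fold lower (log2 change -2.67 ± 0.41 SE, adjusted p = 0.00104), and S100a9 mRNA was 6.43-fold lower (log2 change -2.68 ± 0.41 SE, adjusted p = 0.000987). These groups did not overlap for either gene, as for 4.91% of all genes tested in mRNA. Mmp9 was 4.21-fold lower in footprints (log2 change -2.08 ± 0.45 SE, adjusted p = 0.0024) and 4.40-fold lower in mRNA (log2 change -2.14 ± 0.36 SE, adjusted p = 0.00304). The Camp calls were lost in 10 of 11 fits in mRNA and 10 of 11 in footprints that left out 1 mouse, and the Ngp footprint call in 9 of 11. For members called with all mice, mouse 18 also moved folds between these groups by over 1.5 times. Camp was 4.34-fold lower in mRNA with it and 8.79-fold without it, and in footprints 3.09-fold with it and 6.70-fold without it. Ngp footprints were 2.84-fold lower with it and 4.74-fold without it, and S100a9 footprints 3.64-fold with it and 5.49-fold without it.

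Olfm4 was the 1 member whose diet groups under 5+3 did not overlap in footprints with all mice, as 17.5% of all genes did not. Without mouse 18 the groups did not overlap for 8 members (21.3% of all genes). Its footprints were 14.9 to 39.4 CPM in 6 BCAA-free 5+3 mice and 90.6 CPM in mouse 18 (median of the 7 mice 33.4 CPM), and 171, 103, 103 and 129.7 CPM in AA 5+3 mice. It was 3.27-fold lower in footprints (log2 change -1.71 ± 0.33 SE, adjusted p = 0.001) and 3.79-fold lower in mRNA (log2 change -1.92 ± 0.30 SE, adjusted p = 0.00114). Retnlg was low after 5+3 on both diets. Its footprints were 0.435 to 1.90 CPM in 6 BCAA-free 5+3 mice, 6.39 CPM in mouse 18 and 1.09 to 3.65 CPM in AA 5+3 mice. They did not pass (log2 change -0.08 ± 0.58 SE, adjusted p = 0.94), nor without mouse 18 (-0.91 ± 0.41, adjusted p = 0.0973). Retnlg mRNA did not pass with all mice (-1.05 ± 0.49, adjusted p = 0.364) and passed without mouse 18 (-1.91 ± 0.32, adjusted p = 0.00256).

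Under vehicle the diets differed for 2 members in footprints, where 2.04% of genes passed. Retnlg was 3.09-fold higher (log2 change 1.63 ± 0.39 SE, adjusted p = 0.0356), with 25.6, 18.5, 34.4, 29.6 and 23.3 CPM in BCAA-free vehicle mice and 6.31, 7.86, 9.87, 5.47 and 12.5 CPM in AA vehicle mice. Olfm4 was 2.66-fold lower (log2 change -1.41 ± 0.34 SE, adjusted p = 0.0387), with 53.0, 73.6, 41.9, 79.8 and 62.2 CPM in BCAA-free vehicle mice and 173, 149, 203, 129 and 169.8 CPM in AA vehicle mice. Neither pair of groups overlapped, as for 4.82% of all genes tested. The Retnlg call was lost in 7 of 10 fits that left out 1 mouse and the Olfm4 call in 9 of 10, and both were lost with genes of low count left in (adjusted p = 0.0586 and 0.0511).

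In mRNA 0 of 21114 genes passed between the diets under vehicle in edgeR. Of the members, 3 had an unadjusted p under 0.05 (Retnlg, Olfm4 and Ltf), and DESeq2 called 2, Retnlg higher and Olfm4 lower. The groups did not overlap for 4 members, Retnlg, Olfm4, S100a8 and S100a9, against 1.78% of all genes tested. S100a8 was 1.67-fold higher on the BCAA-free diet (1455 to 2042 CPM against 760 to 1364 CPM). S100a9 was 1.715-fold higher (835 to 972 CPM against 374 to 670 CPM). Neither passed in edgeR (adjusted p = 0.505 and 0.481). Retnlg mRNA was 143 to 178 CPM in BCAA-free vehicle mice and 16.4 to 58.3 CPM in AA vehicle mice (log2 change 2.15 ± 0.53 SE, adjusted p = 0.262), and passed with mouse 18 left out of the shared fit (adjusted p = 0.0243, with 0.00475% of genes passing). Olfm4 mRNA was 24.8 to 41.6 CPM in BCAA-free vehicle mice and 61.1 to 98.1 CPM in AA vehicle mice (log2 change -1.20 ± 0.31 SE, adjusted p = 0.282).

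Whether the change with 5+3 differed between the diets was tested as an interaction. In mRNA S100a8 (log2 change -3.41 ± 0.59 SE, adjusted p = 0.017) and S100a9 (log2 change -3.46 ± 0.59 SE, adjusted p = 0.0166) passed, where 0.0758% of genes passed. In footprints Mmp9 passed (log2 change -2.09 ± 0.62 SE, adjusted p = 0.0497), where 7.09% of genes passed, a share near that of all genes. All 10 members had a negative value in both kinds, that is a change with 5+3 that lay lower on the BCAA-free diet. Without mouse 18, 6 members passed in mRNA (0.128% of genes) and 9 in footprints (9.41%), the exception in footprints being Olfm4, counts that the choice of this mouse raises. The S100a8 and S100a9 calls were lost in 2 of 21 fits each that left out 1 mouse, with genes of low count left in and without the 4 mRNA libraries named above. The Mmp9 call was lost in 17 of 21 fits that left out 1 mouse and with genes of low count left in.

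Translational efficiency, the footprint level relative to the mRNA level, was tested within mice. With 5+3 on the BCAA-free diet it was higher for Camp (log2 change 0.88 ± 0.25 SE, adjusted p = 0.0411) and S100a9 (log2 change 1.02 ± 0.29 SE, adjusted p = 0.0437), where 7.45% of 12097 genes passed. S100a8 (log2 change 0.89 ± 0.31 SE, adjusted p = 0.0702) and Retnlg (log2 change 0.90 ± 0.30 SE, adjusted p = 0.06) did not pass. Ngp, Ltf, Lcn2, Mmp8 and Mmp9 had log2 changes from -0.80 to -0.22, and Olfm4 had 0.27, and none of the 6 passed. Without mouse 18, Camp, S100a9 and Retnlg (1.02 ± 0.34, adjusted p = 0.0488) passed, where 13.6% of genes passed.

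The log2 ratio of S100a9 footprint CPM to mRNA CPM was -0.45 ± 0.54 (SD, n = 7) in BCAA-free 5+3 mice and -1.33 ± 0.29 (SD, n = 5) in BCAA-free vehicle mice, and was -1.21 ± 0.69 (SD, n = 4) in AA 5+3 mice and -0.61 ± 0.41 (SD, n = 5) in AA vehicle mice. For Camp it was -2.54 ± 0.46 (SD, n = 7) in BCAA-free 5+3 mice and -3.27 ± 0.35 (SD, n = 5) in BCAA-free vehicle mice. In AA 5+3 mice the Camp ratio was -2.84 ± 0.48 (SD, n = 4), and in AA vehicle mice -2.69 ± 0.29 (SD, n = 5). The BCAA-free 5+3 and vehicle groups overlapped for both genes. Efficiency was not fitted without the 4 mRNA libraries named above, which include BCAA-free vehicle replicates 1, 2 and 5. The Camp call was lost in 8 of 12 and the S100a9 call in 8 of 12 fits that left out 1 mouse, and both were lost without the mouse as a block. In the other efficiency comparisons no member passed in edgeR or in DESeq2, where 0.00827% of genes passed in edgeR for the diets under 5+3 and none for the rest, with 4 members at an unadjusted p under 0.05 for 5+3 on the AA diet, 2 for the diets under 5+3 and 4 for the diets under vehicle.

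**Figure D4:**
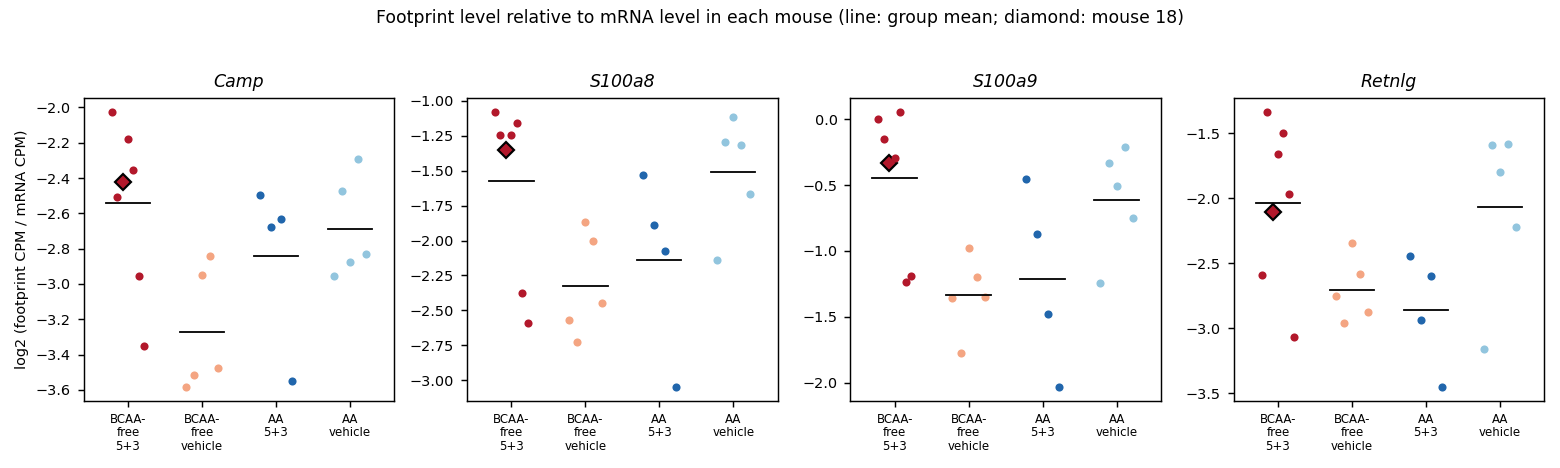
Log2 of footprint CPM over mRNA CPM for Camp, S100a8, S100a9 and Retnlg in each mouse by group, mouse 18 as a diamond and the group mean as a line. For S100a9 the mean was -0.45 in BCAA-free 5+3 mice and -1.33 in BCAA-free vehicle mice.

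Other genes of late neutrophils moved in part. Of 23 other secondary and tertiary granule and late neutrophil genes tested in footprints, 9 fell and 0 rose with 5+3 on the BCAA-free diet (median -0.39), or 11 of 23 without mouse 18. In that comparison 11.9% of all genes fell, and 23.9% passed in either direction without mouse 18. The adhesion receptor Ceacam1 (-0.92 ± 0.15, adjusted p = 0.000193), lysozyme Lyz2 (-1.76 ± 0.30, adjusted p = 0.000777) and the membrane proteases Adam8 (-2.09 ± 0.47, adjusted p = 0.0033) and Mmp25 (-1.79 ± 0.43, adjusted p = 0.00496) fell. Lyz2 is also on the list of monocyte and macrophage markers, so it is counted in both lists. In mRNA 5 of 24 fell and 1 rose, with Cybb, the large subunit of the NADPH oxidase, lower (-1.75 ± 0.34, adjusted p = 0.00776) and properdin Cfp higher (1.31 ± 0.23, adjusted p = 0.00431). Of all genes 4.23% fell in mRNA and 8.56% passed in either direction. On the AA diet 3 of 23 fell in footprints and 1 rose, Lyz2 being among those that fell (-1.97 ± 0.36, adjusted p = 0.00341) and Wfdc21 the one that rose (1.53 ± 0.46, adjusted p = 0.0493). On that diet 6.61% of all genes passed in footprints, in either direction.

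Of 22 neutrophil surface receptors and secretory vesicle genes tested in footprints, 7 fell and 0 rose with 5+3 on the BCAA-free diet, or 8 fell of 21 without mouse 18. In that comparison 11.9% of all genes fell, and 23.9% passed in either direction without mouse 18. The formyl peptide receptors Fpr1 (-2.56 ± 0.54, adjusted p = 0.00195) and Fpr2 (-2.41 ± 0.40, adjusted p = 0.000241) and the complement receptor C5ar1 (-1.51 ± 0.36, adjusted p = 0.00547) fell. Fpr2 is also a receptor for the Camp peptide, and it was 1 of 2 genes that fell among 8 tested partners of the members (receptors and inhibitors). On the AA diet 3 of 22 surface genes fell and 2 rose, and Tlr4, a receptor for calprotectin, rose among the partners (1.15 ± 0.24, adjusted p = 0.00466). On that diet 6.61% of all genes passed in footprints, in either direction. Of 5 other S100 genes tested, 3 fell on the BCAA-free diet, S100a6 among them (-1.90 ± 0.35, adjusted p = 0.000889), and on the AA diet none passed in edgeR, with 2 at an unadjusted p under 0.05.

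Primary granule genes, made earlier in maturation, showed both directions with 5+3 on each diet. Of 14 tested in footprints, 2 rose and 3 fell with 5+3 on the BCAA-free diet, or 3 and 3 without mouse 18. Of all genes 20.6% passed there in either direction, and 23.9% without mouse 18. The progenitor gene Ms4a3 (1.85 ± 0.36, adjusted p = 0.00218) and cathepsin G, Ctsg (0.31 ± 0.09, adjusted p = 0.0205), rose, and the lysosomal enzyme gene Hexa fell (-0.36 ± 0.09, adjusted p = 0.0045). On the AA diet 4 rose and 1 fell, with Ms4a3 (2.08 ± 0.40, adjusted p = 0.0053), proteinase 3, Prtn3 (0.62 ± 0.15, adjusted p = 0.0109), and myeloperoxidase, Mpo (0.59 ± 0.15, adjusted p = 0.0175), higher. On that diet 6.61% of all genes passed in footprints, in either direction. Between the diets under 5+3, 6 of 14 were lower in footprints on the BCAA-free diet and 1 was higher, where 15.8% of genes passed lower. Among the lower were Hexa (-0.70 ± 0.09) and Mpo (-0.60 ± 0.14). In mRNA none of the 14 passed between these groups. The interaction of diet with 5+3 passed in footprints for 1 of 14, Mpo (-0.77 ± 0.20, adjusted p = 0.0207), where 7.09% of genes passed.

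Of 12 granulocyte transcription factors tested in footprints, 4 fell and 0 rose with 5+3 on the BCAA-free diet, or 5 fell without mouse 18. In that comparison 11.9% of all genes fell, and 23.9% passed in either direction without mouse 18. Cebpe, which encodes C/EBP-epsilon, fell (-0.94 ± 0.14, adjusted p = 0.000105), as did Cebpd (-0.64 ± 0.14, adjusted p = 0.00237), Runx1 (-0.60 ± 0.14, adjusted p = 0.00452) and Irf8, a factor of monocytes (-1.82 ± 0.41, adjusted p = 0.00516). Cebpe footprints were 17.8 CPM in mouse 18, 9.91 to 24.0 CPM in the other 6 and 26.6 to 36.5 CPM in BCAA-free vehicle mice. Mouse 18 was thus within its group for Cebpe, unlike for the members. In mRNA, where 4.23% of all genes fell, 1 of 14 factors fell, Runx1 (-0.74 ± 0.17, adjusted p = 0.014). Cebpe did not pass in mRNA, with 55.9 CPM in mouse 18, 38.0 to 167 CPM in the other 6 and 51.3 to 119 CPM in BCAA-free vehicle mice. On the AA diet 1 of 12 fell in footprints, Irf8 (-1.78 ± 0.50, adjusted p = 0.0417), where 6.61% of all genes passed, a share near that of all genes. The interaction of diet with 5+3 passed for 1 of 12, Cebpe footprints (-0.80 ± 0.21, adjusted p = 0.0249), where 7.09% of all genes passed.

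Over the 21 mice the members' log2 CPM varied together, as values that share the groups and contrasts above. Across the 45 pairs of members the median Pearson r was 0.85 in footprints and 0.78 in mRNA. S100a8 and S100a9 were the closest pair, at 0.99 in footprints and 0.99 in mRNA. The least alike were Retnlg and Olfm4 in footprints (0.43) and Lcn2 and Mmp8 in mRNA (0.23). Of 9190 genes with a mean of at least 10 CPM in footprints, the 8 whose levels were most like the mean of the members were, with r, Cd177 (0.94), Cybb (0.93), Mgst1 (0.92), Cyld (0.91), Naip2 (0.90), Lta4h (0.90), Clec4a2 (0.90) and Mtmr6 (0.90). Of 9176 such genes in mRNA they were Cybb (0.92), Hba-a1 (0.90), Hbb-bs (0.88), Ifitm6 (0.88), H2-K1 (0.86), Isg15 (0.86), Fcnb (0.85) and G0s2 (0.85).

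The genes most like the members differed in how mouse 18 stood. They were chosen by likeness over all 21 mice, mouse 18 included, so its place in them is partly set by that choice. Cd177, a neutrophil surface glycoprotein, had footprints of 38.6 CPM in mouse 18, 7.84 to 18.9 CPM in the other 6 and 28.8 to 44.9 CPM in BCAA-free vehicle mice. Cybb had footprints of 28.0 CPM in mouse 18, 3.34 to 16.3 CPM in the other 6 and 22.02 to 31.0 CPM in BCAA-free vehicle mice. For both, mouse 18 was above the rest of its group and within the vehicle range in footprints. In mRNA that held for Cybb, with 19.45 CPM in mouse 18, 3.79 to 8.77 CPM in the other 6 and 18.2 to 28.0 CPM in BCAA-free vehicle mice. It did not hold for Cd177, whose mRNA was 7.44 CPM in mouse 18, within the 1.33 to 21.1 CPM of the other 6. The alpha-globin gene Hba-a1 had footprints of 4.62 CPM in mouse 18, 1.70 to 6.24 CPM in the other 6 and 27.9 to 51.0 CPM in BCAA-free vehicle mice. Its mRNA was 2.34 CPM in mouse 18, 0.138 to 1.61 CPM in the other 6 and 25.5 to 53.0 CPM in BCAA-free vehicle mice. There mouse 18 was within its group in footprints, above it in mRNA and below every vehicle mouse in both.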

How the data were processed

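Each of 21 mice gave 1 mRNA and 1 ribosome footprint library, 42 in all. The deposited tables hold raw whole-number counts of reads per mouse Ensembl gene. Tools listed in the submitters' processing notes, without version or role, are featureCounts, STAR, Bowtie2, cutadapt and SAMtools, with the builds mm10 and GRCm38. The sources used here do not give the annotation or strand. Without strand, reads of overlapping genes cannot be told apart. Symbols were matched for 55141 of 55487 identifiers (99.4%). Groups came from the sample labels, which number biological replicates. Nothing else is said of how they were separate, so p-values measure only the spread between these samples.

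Genes were filtered with filterByExpr (minimum count 10, total 15), scaled by TMM and tested with edgeR 4.0.16 (robust quasi-likelihood, R 4.3.3), with all 4 groups in 1 fit per kind of library and Benjamini-Hochberg adjustment over all genes tested. The threshold was an adjusted p of 0.05. The SE is the absolute log2 change over the square root of F. Efficiency was the interaction of library kind with group over 42 libraries, with the mouse as a block, since both libraries come from 1 animal. DESeq2 1.42.0 was an alternative, as were other scaling, no filter, only the compared groups, a replicate block, leaving out each mouse, and leaving out 4 mRNA libraries named in an earlier look. In the first principal component of mRNA computed here, BCAA-free 5+3 replicate 7 was at 20.3, the highest of its group (the others -69.7 to 5.56). It lay within the range of the AA vehicle libraries (-47.9 to 36.7). No pair of libraries within a group agreed within sampling noise (chi-square per degree of freedom of at least 34.1 in mRNA and 3.99 in footprints over 47 pairs each). The fits were tested on simulated data.

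The naming rule took all 10 members in every comparison. Of each list it took up to 4 genes by smallest adjusted p among those that passed. It also took the 8 genes most like the members by Pearson r of log2(CPM + 0.1). For some comparisons the text gives only part of the members and list genes that it took. A gene that this rule names is not reported here. The genes used to describe mouse 18, and the list counts without mouse 18, were chosen after seeing the data. The members and all lists were chosen with earlier results of these data known.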

Additional observations from a re-analysis of the deposited data

Results flagged for a closer look

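Of 80 groups of mice (10 genes, 4 groups and both kinds of library), 18 held a mouse whose gap to its nearest neighbour was a larger share of the group's range than Dixon's 95% critical value, where chance gives about 1 in 20. The members varied together and mouse 18 was known to stand apart in them, so that share is no yardstick for the count, and the gaps of mouse 18 are given as a description. Mouse 18, the highest of the BCAA-free 5+3 mice, accounted for 9 in footprints and 6 in mRNA. Its gap as a share of the range was, in footprints, Camp (0.874), Ngp (0.745), Ltf (0.867), Mmp8 (0.873), Mmp9 (0.694), Retnlg (0.754), S100a8 (0.587), S100a9 (0.677) and Olfm4 (0.677). In mRNA it was Camp (0.865), Ltf (0.644), Mmp8 (0.5683), Retnlg (0.864), S100a8 (0.638) and S100a9 (0.744). Leaving it out raised the members called with 5+3 on the BCAA-free diet to 10 in footprints, against 8 with it, and to 9 in mRNA, against 8.

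The other 3 were Ltf mRNA and Mmp8 footprints in AA 5+3 mice and Retnlg mRNA in BCAA-free vehicle mice. Ltf mRNA was 84.5, 33.2, 32.0 and 33.6 CPM in AA 5+3 mice, with mouse 6 the highest (gap 0.971 of the range). Mmp8 footprints were 6.65, 3.05, 2.72 and 3.19 CPM in AA 5+3 mice, again with mouse 6 the highest (0.882). Retnlg mRNA was 172, 143, 174, 178 and 171 CPM in BCAA-free vehicle mice, with mouse 12 the lowest (0.796).

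The change with 5+3 differed between the diets by the interaction test for S100a8 mRNA (log2 change -3.41 ± 0.59 SE, adjusted p = 0.017), S100a9 mRNA (log2 change -3.46 ± 0.59 SE, adjusted p = 0.0166) and Mmp9 footprints (log2 change -2.09 ± 0.62 SE, adjusted p = 0.0497). The log2 change of S100a8 mRNA was -2.12 ± 0.39 (SE) on the BCAA-free diet and 1.28 ± 0.44 on the AA diet. That of S100a9 mRNA was -2.47 ± 0.39 on the BCAA-free diet and 0.99 ± 0.44 on the AA diet. That of Mmp9 footprints was -2.35 ± 0.42 on the BCAA-free diet and -0.26 ± 0.45 on the AA diet. The AA diet values did not pass on their own.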

How the results depend on the processing

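Counts of members called under other settings are given beside those of the report, and the causes of the moves were not tested. The share of all genes called under each setting is not given here. The counts therefore show how the members' own calls depend on the setting, and nothing particular to the members. The same holds for counts under other settings given above without such a share. With median-ratio size factors no such count moved by over 1.5 times. With genes of low count left in, the footprint counts were 5 for 5+3 on the BCAA-free diet, 0 for 5+3 on the AA diet, 0 for the diets under vehicle and 0 for the interaction, that of the mRNA interaction was 1 and that of efficiency with 5+3 on the BCAA-free diet 1. DESeq2 called 1 in mRNA for 5+3 on the AA diet, 2 for the diets under vehicle and 6 for the interaction, and 2 for the footprint interaction. With only the compared groups fitted, the footprint counts were 4 for 5+3 on the BCAA-free diet, 2 for 5+3 on the AA diet and 3 for the diets under 5+3. Without mouse 18 the shared fit called 2 in footprints for 5+3 on the AA diet and 1 in mRNA for the diets under vehicle. Without the 4 mRNA libraries an earlier look had set apart, 3 members were called with 5+3 on the BCAA-free diet and 0 in the interaction.

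Replicate numbers do not pair mice of different groups by the labels, and same-numbered mice did not deviate together (median r 0.057 in mRNA and -0.015 in footprints over 27 pairs). With the replicate number as a block the footprint counts were 4 for 5+3 on the BCAA-free diet, 1 for the diets under vehicle, 3 for the diets under 5+3 and 0 for the interaction, and that of the mRNA interaction was 0. The block turned the sign of the log2 change of Ltf mRNA with 5+3 on the AA diet (-0.072), Ngp mRNA (0.045) and Mmp9 footprints (-7.43e-05) between the diets under vehicle. Without the mouse as a block (no replicate block) efficiency gave 0 calls with 5+3 on the BCAA-free diet, and Ltf there (0.13) and Mmp8 (0.043) and Mmp9 (0.13) between the diets under 5+3 changed sign. Mmp9 between the diets under vehicle changed sign in mRNA without the 4 libraries (-0.042) and in footprints with DESeq2 (-0.014), and Ngp efficiency between the diets under 5+3 with genes of low count left in (-0.012).

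Leaving out 1 mouse at a time gave, in mRNA, 7 to 9 members for 5+3 on the BCAA-free diet, 0 to 0 on the AA diet, 4 to 9 for the diets under 5+3, 0 to 0 under vehicle and 0 to 6 for the interaction. In footprints it gave 5 to 10, 0 to 1, 3 to 9, 0 to 1 and 0 to 9 in the same order. Efficiency with 5+3 on the BCAA-free diet gave 0 to 4 and the other efficiency comparisons 0 to 0. Small log2 changes that turned sign ranged as follows. In mRNA, Camp -0.44 to 0.11 and Ltf -0.43 to 0.18 with 5+3 on the AA diet, and Ngp -0.21 to 0.43 and Mmp9 -0.053 to 0.39 between the diets under vehicle, did so. In footprints, Ngp -0.10 to 0.069, Mmp9 -0.095 to 0.11 and S100a8 -0.12 to 0.052 under vehicle, and Retnlg -0.91 to 0.29 under 5+3, did so. In efficiency, Camp -0.27 to 0.047 with 5+3 on the AA diet, Ltf -0.34 to 0.027 with 5+3 on the BCAA-free diet, Ngp -0.42 to 0.013 and Mmp8 -0.34 to 0.15 between the diets under vehicle, and Ngp -0.035 to 0.23, Mmp8 -0.51 to 0.032 and Mmp9 -0.17 to 0.090 under 5+3, did so. None of these had passed. Footprint depth limits the low members, with counts from 2 for Retnlg.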
